A study of Mus musculus with 30 samples.

Results

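Nuclear RNA was compared between mouse embryonic stem (ES) cells that express catalytically dead SRCAP (cdSRCAP) and cells that express wild-type SRCAP (wtSRCAP), after the endogenous SRCAP protein had been degraded. The comparison takes the 4 of the study's 30 samples that are named for one of the SRCAP lines and for IAA, 2 replicates per group, with the replicate number as a block. The intron and the exon counts of each library were both used. The design asks what the ATPase activity of SRCAP contributes to transcription once the degron-tagged protein is gone.

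Both lines were derived from SYAT cells, a clone of CGR8 ES cells in which SRCAP is homozygously tagged with YPet and an auxin-inducible degron (AID) and OsTir1 is expressed from a lentiviral EF1a promoter, so that the auxin IAA leads to degradation of the tagged protein. Each line carries in addition a lentiviral SRCAP-mCherry under the doxycycline-inducible TRE3G promoter with rtTA3G, and each is 1 selected clone. cdSRCAP has substitutions in the ATPase domain. All 8 libraries of the table, the 4 compared here and 4 controls of the same clones, came from cells kept in serum and LIF, given 1 µg/mL doxycycline for 24 h and sorted for similar, high mCherry. IAA was present at 500 µM for 4 h in the compared groups, and controls had the Tir1 inhibitor auxinole in its place.

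SRCAP is the ATPase of a chromatin remodelling complex that exchanges histone H2A for the variant H2A.Z at promoters and enhancers. The exchange consumes ATP, while the binding of the complex to chromatin and to other proteins is a separate property of the same protein. In ES cells H2A.Z is found at active promoters and also at bivalent promoters of developmental genes.

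Intron reads come mostly from newly made, unspliced RNA, and exon reads from unspliced and mature RNA together. Values per library are CPM, a gene's counts relative to all counts of its library on 1 common scale, with edgeR's TMM factors, and log2 fold changes (cdSRCAP over wtSRCAP, ± standard error, 2 libraries per group) come from edgeR's quasi-likelihood fit of the 8 libraries. A gene was called higher or lower in cdSRCAP at an absolute log2 fold change over 0.5 and a Benjamini-Hochberg adjusted p under 0.05 over all genes tested. Replicates are described as biological duplicates of 1 clone per line, so a difference between the 2 SRCAP forms cannot be told apart from one between the 2 clones. The p-values rest on the spread between such duplicates that is left in the 8 libraries after the replicate block. This spread has 3 residual degrees of freedom per gene, before edgeR's moderation across genes.

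The intron columns of the 8 libraries held 2006573 to 5398261 counts and the exon columns 12236493 to 26369773. wtSRCAP IAA replicate 1 stood apart from the other libraries. It had the lowest depth in both columns, 0.215% of exon counts on mitochondrial genes against 0.606 to 0.808% elsewhere, and 23.9% of exon counts on 1 gene (ENSMUSG00000118642) that took 4.42 to 17.3% elsewhere. Its part in the results was not tested. Counts without the library are given for all genes and for the lists with most calls. The ratio of intron to exon counts was 0.164 and 0.148 in wtSRCAP and 0.235 and 0.248 in cdSRCAP after IAA. The 10 ES cell marker genes were all detected, with a summed exon level of 4051 and 5033 CPM in wtSRCAP and 5249 and 6250 CPM in cdSRCAP. Markers of fibroblasts summed to at most 18.2 CPM (Lum, Postn and Fap at 0) in the 4 libraries and markers of endoderm to at most 11.7 CPM (Afp and Ttr at 0). Those of neural progenitors lay between 119.9 and 148 CPM (Neurog2 at 0). In such bulk samples fewer cells of a type and less RNA per cell cannot be told apart. Srcap itself had exon levels of 57.2 and 58.8 CPM in wtSRCAP and 74.5 and 61.3 CPM in cdSRCAP, a log2 fold change of 0.22 ± 0.15 that was not called (adjusted p = 0.55). Its exon counts add endogenous and transgene RNA, its intron column was 0 in all 8 libraries, and gene counts cannot show the substitutions.

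In introns, more genes were higher than lower in cells with the dead protein. Of 12702 genes tested, 203 were higher (1.60%) and 37 lower (0.291%) in cdSRCAP. The median log2 fold change of all genes tested was -0.0018, and 2009 genes had an unadjusted p under 0.05. The 4 libraries did not overlap between the lines in 198 of the 203 higher and 28 of the 37 lower genes, where 40.7% of all genes tested had no overlap. Of the higher genes 201 were protein-coding, and their median log2 fold change was 0.87. These numbers rest on the replicate block and on single libraries. Without the block 2 genes remained, Gab1 (lower) and Ttc27 (higher), while 1296 genes had an unadjusted p under 0.05. There were 476 calls without wtSRCAP IAA replicate 2, 131 without cdSRCAP IAA replicate 1, 102 without cdSRCAP IAA replicate 2, and 160 higher and 8 lower genes without wtSRCAP IAA replicate 1.

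The exon columns gave calls in both directions. Of 19111 genes tested, 113 were higher (0.591%) and 156 lower (0.816%) in cdSRCAP. With upper-quartile scaling the split was 131 higher and 90 lower, so the excess of lower genes in exons depended on the scaling. The 4 libraries did not overlap in 106 of the higher and 139 of the lower genes, against 33.7% of all genes tested. Without the replicate block 1 gene, Gab1, remained, with 961 unadjusted p-values under 0.05 in place of 2701. There were 13 calls without cdSRCAP IAA replicate 1, 117 without cdSRCAP IAA replicate 2, 2492 without wtSRCAP IAA replicate 2, and 122 higher and 162 lower genes without wtSRCAP IAA replicate 1.

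Intron and exon counts of the same libraries called 45 genes in the same direction, 34 higher and 11 lower. They were 16.7% of the higher and 29.7% of the lower intron calls, and 30.1% of the higher and 7.05% of the lower exon calls. No gene was called in opposite directions. In 43 of the 45 the lines did not overlap in either column, where 40.7% of all genes tested had no overlap in introns and 33.7% in exons. The 45 were selected by calls in these same libraries, so this count adds no support. Both columns count the same libraries, so a call in one is not independent of the other.

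Gab1, a scaffold protein that links receptor tyrosine kinases to the ERK and PI3K pathways and is imprinted in extraembryonic tissue, had the lowest p in both columns. Its gene body spans chr8:80764438-80880519 (mm10, minus strand) and overlaps the antisense gene models Gm31105 and Gm7997. Its intron level was 486.5 and 413.4 CPM in the wtSRCAP IAA libraries and 83.1 and 90.2 CPM in cdSRCAP. Its exon level was 141.3 CPM in each wtSRCAP library and 13.4 and 15.8 CPM in cdSRCAP. The lines were far apart in every library. Gab1 was thus 5.17-fold lower in introns (log2 fold change -2.37 ± 0.17, adjusted p = 0.00059) and 9.74-fold lower in exons (-3.28 ± 0.18, adjusted p = 3e-11). It was also separated in the controls, with 450.4 and 377.4 CPM in introns in wtSRCAP and 61.6 and 85.9 in cdSRCAP (control log2 fold change -2.48), and it was called in both columns without the replicate block (adjusted p = 0.0056 in introns and 0.024 in exons).

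Sema5b, a transmembrane semaphorin of axon guidance (chr16:35541145-35664732, plus strand), was higher in cdSRCAP. Its intron level was 56.3 and 79.9 CPM in wtSRCAP and 255.2 and 312.2 CPM in cdSRCAP, with no overlap. The difference was 4.19-fold in introns (2.07 ± 0.17, adjusted p = 0.00063) and 3.05-fold in exons (1.61 ± 0.23, adjusted p = 0.00079). Mras, a Ras-related GTPase of the SHOC2 phosphatase complex, had 49.9 and 61.5 CPM in wtSRCAP and 159 and 160 CPM in cdSRCAP introns. Both cdSRCAP libraries were well above both wtSRCAP libraries (1.52 ± 0.16, adjusted p = 0.0021; exons 1.11 ± 0.20). Cobl, an actin nucleator, had 772.2 and 541 CPM in wtSRCAP and 1651 and 1367 CPM in cdSRCAP introns (1.22 ± 0.11, adjusted p = 0.00079; exons 0.85 ± 0.14). Trps1, a GATA-type zinc finger repressor, had 1140 and 776.6 CPM in wtSRCAP against 2759 and 1637 CPM in cdSRCAP introns (1.18 ± 0.10, adjusted p = 0.00079; exons 0.94 ± 0.16). For Cobl and Trps1 replicate 1 was above replicate 2 in both lines, and the lines did not overlap. In Cobl the gap between the lines was wider than the gap between replicates, while in Trps1 the cdSRCAP libraries were themselves far apart.

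The other genes of both columns with low p-values were higher in cdSRCAP as well. Lama1, a laminin chain of the basement membrane, had 43.5 and 99 CPM in wtSRCAP and 205.9 and 221.2 CPM in cdSRCAP introns (1.59 ± 0.22; exons 0.82 ± 0.16). Ncam1, a neural cell adhesion molecule, had 25 and 26.2 CPM in wtSRCAP and 88.2 and 102 CPM in cdSRCAP introns (1.88 ± 0.27; exons 1.33 ± 0.23). In both genes the lines did not overlap. The integrin gene Itga9 (1.05 ± 0.14), Fry, which codes for a microtubule-associated protein (1.12 ± 0.14), and Aff1, a scaffold of the super elongation complex (1.04 ± 0.13), were higher in introns by similar amounts, with adjusted p-values of 0.007, 0.0063 and 0.0058. Their exon log2 fold changes were 0.86 ± 0.17, 1.49 ± 0.24 and 0.74 ± 0.16.

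**Figure D1:**
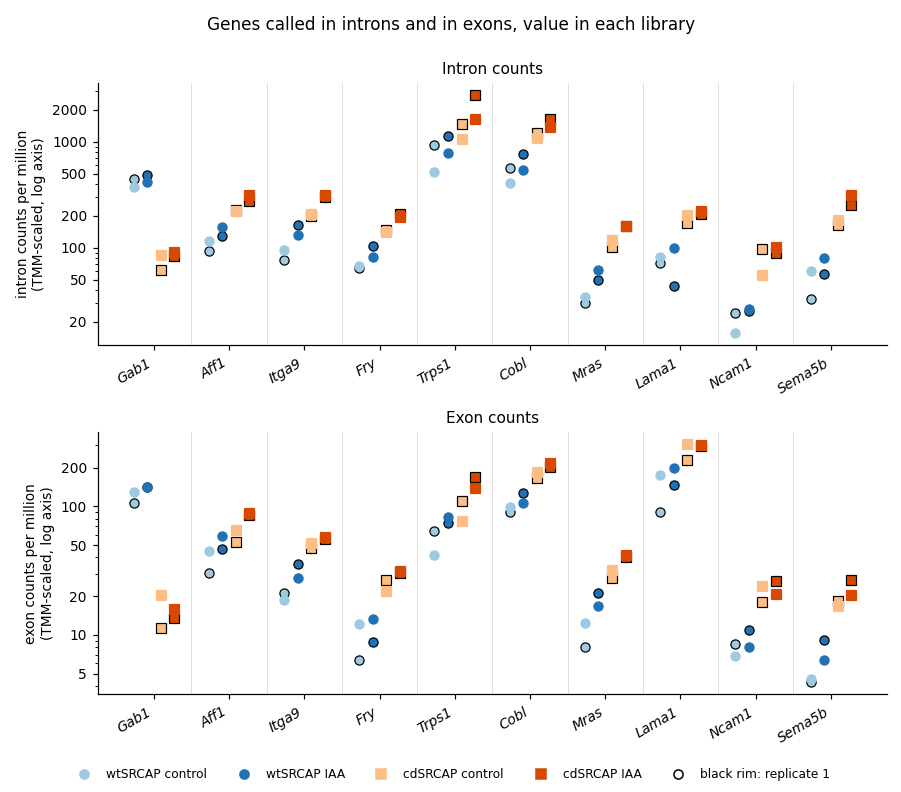
Intron (top) and exon (bottom) CPM, TMM-scaled and on log axes, of the 10 genes with the lowest p among those called in both columns, with 1 point per library (circles wtSRCAP, squares cdSRCAP, pale colours controls, dark colours IAA, black rim replicate 1). Gab1 lies lower and the other genes lie higher in cdSRCAP, with IAA and in the controls.

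The promoter windows of Gab1, 1 of the 11 genes called lower in both columns, and of 3 of the 34 called higher are shown because these genes are among those of lowest p in the 2 directions. They span 250 bases before to 50 after the RefSeq start, were read from the RefSeq table of GRCm38.p6, and have the GC box GGGCGG in capitals on either strand (as CCGCCC on the other strand).
Gab1, chr8:80880470-80880769, minus strand: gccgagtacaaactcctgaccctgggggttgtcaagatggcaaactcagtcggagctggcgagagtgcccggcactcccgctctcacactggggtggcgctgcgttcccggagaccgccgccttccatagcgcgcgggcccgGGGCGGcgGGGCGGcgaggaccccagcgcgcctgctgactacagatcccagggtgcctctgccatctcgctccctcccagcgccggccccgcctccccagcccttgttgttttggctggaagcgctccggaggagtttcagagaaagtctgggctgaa
Sema5b, chr16:35541112-35541411, plus strand: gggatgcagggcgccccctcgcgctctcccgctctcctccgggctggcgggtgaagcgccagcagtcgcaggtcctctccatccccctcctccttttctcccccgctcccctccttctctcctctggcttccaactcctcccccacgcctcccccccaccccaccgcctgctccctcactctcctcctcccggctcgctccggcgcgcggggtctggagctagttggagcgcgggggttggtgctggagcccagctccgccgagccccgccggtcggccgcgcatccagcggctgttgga
Cobl, chr11:12464911-12465210, minus strand: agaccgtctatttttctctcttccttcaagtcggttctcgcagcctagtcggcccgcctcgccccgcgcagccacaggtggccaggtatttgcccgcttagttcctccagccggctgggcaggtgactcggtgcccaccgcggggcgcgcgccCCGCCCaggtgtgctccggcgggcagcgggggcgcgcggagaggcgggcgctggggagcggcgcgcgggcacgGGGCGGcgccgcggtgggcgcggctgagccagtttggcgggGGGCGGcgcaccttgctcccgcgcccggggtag
Mras, chr9:99436663-99436962, minus strand: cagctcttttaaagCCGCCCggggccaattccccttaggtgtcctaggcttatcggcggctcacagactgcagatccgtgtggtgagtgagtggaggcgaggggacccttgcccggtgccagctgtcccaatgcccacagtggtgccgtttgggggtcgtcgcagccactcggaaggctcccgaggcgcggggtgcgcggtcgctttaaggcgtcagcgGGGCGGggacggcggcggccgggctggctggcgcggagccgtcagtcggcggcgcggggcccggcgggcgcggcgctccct
Gab1 held 2 GC boxes, Cobl 3, Mras 2 and Sema5b 0, and all 4 windows were GC-rich (68 to 75.3% GC). Over all genes with a promoter in the table, 63.6% of the promoters of genes tested in introns held GGGCGG, against 68.2% of those called higher (151 with a promoter) and 75% of those called lower (28 with a promoter), and 36% of all promoters. With these numbers of promoters the shares of called genes stood near that of the genes tested.

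Among protein-coding genes with no overlap between the lines and a mean of at least 20 intron counts, the 12 with the largest decreases were Gab1, Kif1a, Sgce, Rhbdf1, Il31ra, Jag2, Mmp14, Peg10, Phgdh, Ssbp4, Tspan4 and Patj. Kif1a, a kinesin motor of axonal transport, had 48.3 and 79.9 CPM in wtSRCAP and 19.6 and 26.1 CPM in cdSRCAP (-1.48 ± 0.25, adjusted p = 0.019). Sgce and Peg10, neighbouring imprinted genes, fell by 1.39 ± 0.23 and 1.03 ± 0.20 on the log2 scale. Jag2, a ligand of Notch receptors, had 95.6 and 46.5 CPM in wtSRCAP and 40 and 23.2 CPM in cdSRCAP (-1.13 ± 0.19), and Mmp14, a membrane-anchored matrix metalloproteinase, fell from 112 and 137 CPM to 61.5 and 54.6 CPM (-1.09 ± 0.19). Phgdh, the first enzyme of serine synthesis, had 88.2 and 101 CPM in wtSRCAP and 49 and 43.4 CPM in cdSRCAP (-1.03 ± 0.18). In all of these both cdSRCAP libraries were below both wtSRCAP libraries, by selection. Patj, which codes for a scaffold of the tight junction, was the gene of this group with the lowest adjusted p after Gab1 (0.0067, -0.99 ± 0.13).

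The 12 largest increases in introns by the same conditions were Ttc27, E2f7, Dnmt3b, Shoc2, Nsmaf, Ankrd13a, Nipa1, Kcnh7, Gfra2, Col25a1, Alcam and Sema5b. The first 6 had a library at 0 in wtSRCAP IAA, and their sizes are lower bounds or unstable. Ttc27 had 0 intron counts in both wtSRCAP IAA libraries and 268 and 467 in cdSRCAP, which makes it at least 67-fold higher with 3 counts per library as the floor. E2f7, an atypical E2F repressor, was at least 38.4-fold higher, and Dnmt3b, a de novo DNA methyltransferase, at least 25-fold. Their exon levels did not follow, with log2 fold changes of -0.05 for Ttc27, -0.29 for E2f7 and -0.57 for Dnmt3b, none of them called. Nipa1, a magnesium transporter gene, had 2.12 and 2.62 CPM in wtSRCAP and 15.2 and 17.3 CPM in cdSRCAP (2.76 ± 0.45), and Kcnh7, a potassium channel gene, 5.84 and 8.58 CPM against 42.4 and 32.9 CPM (2.34 ± 0.33). Gfra2, a receptor of the GDNF family, was higher in introns (2.33 ± 0.43) and in exons (2.00 ± 0.45).

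In all, 16 called genes had an intron count of 0 in at least 1 of the 4 libraries, 7 of the higher and 9 of the lower. None of the 16 was called in exons, where their log2 fold changes lay between -0.57 and 0.15 for the higher and between -0.20 and 0.58 for the lower. Of the 9 lower genes, 8 had their counts in wtSRCAP IAA replicate 1 alone. With genes that had a count in each of the 8 libraries 224 calls remained, 196 higher and 28 lower, so most calls did not rest on such genes.

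The difference in introns followed the length of the gene. Over deciles of gene span, the median log2 fold change rose from -0.26 in the shortest genes (median 5.23 kb) to 0.29 in the longest (279.7 kb), and it rose in each replicate number taken alone, from -0.18 to 0.27 and from -0.29 to 0.29. In the controls it ran from -0.11 to 0.19. The longest decile held 123 of the 203 higher genes, which is 9.69% of its genes, and 1 of the 37 lower. The median span was 199.7 kb in the higher genes, 33.3 kb in the lower genes and 31.4 kb in all genes tested. In exons there was no such rise over the whole range. The median was 0.25 in the shortest decile, -0.05 in the decile around 7.11 kb, and from there rose weakly to 0.07 in the longest. The longest decile held 30 of the 113 genes higher in exons (1.57% of its genes) and 17 of the 156 lower (0.891%).

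With the trend against span removed in the fit, an alternative chosen after seeing the data, 42 genes were higher and 27 lower in introns. Of the 203 higher genes 41 were still called, and all 203 kept a positive log2 fold change. Of the 37 lower genes 19 were still called. Gab1 (-2.52), Sema5b (1.90), Mras (1.48), Cobl (0.96), Trps1 (0.91), Ntn1 and Patj (-1.29) were among the genes that were called in both fits. The exon calls were affected little, with 86 of the 113 higher and 153 of the 156 lower genes still called.

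**Figure D2:**
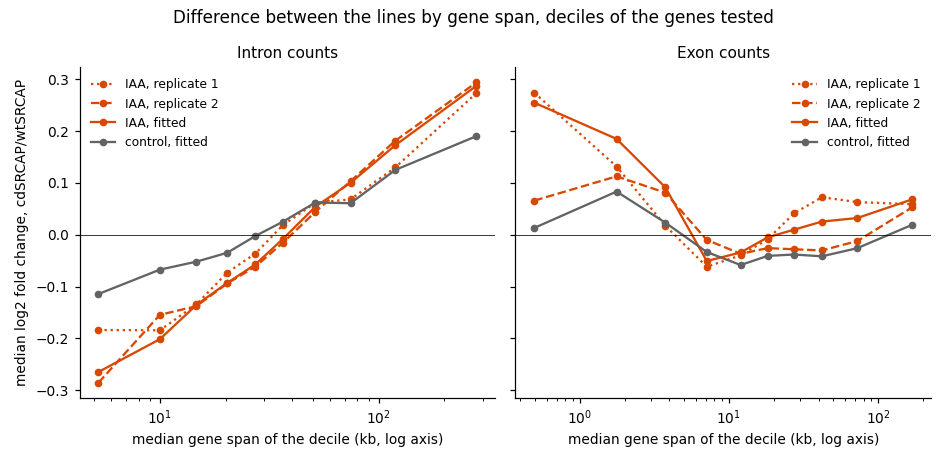
Median log2 fold change (cdSRCAP over wtSRCAP) in deciles of gene span (kb, log axis) for intron counts (left) and exon counts (right), for the IAA libraries as fitted (solid orange), each replicate number alone (dotted and dashed) and the controls (grey). In introns the median rises with span from -0.26 to 0.29 after IAA, and less steeply in the controls.

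Most of the called genes differed in the same direction in the controls, where the endogenous protein was not degraded. In the 4 control libraries, 128 genes were higher (1.01%) and 8 lower (0.0630%) in cdSRCAP introns, and 117 were higher (0.612%) and 57 lower (0.298%) in exons. Of the 203 genes higher after IAA, 197 were also higher in the controls, where 52.9% of all genes tested were, 82 of them were called there, and their median log2 fold change was 0.62 against 0.87 after IAA. Of the 37 lower genes, 29 were lower in the controls, 6 called, and 3 were called the other way. In exons all 113 higher and 155 of the 156 lower genes had the same direction in the controls, where 47.7% of all genes were higher and 52.3% lower, with 59 and 42 of them called. Medians in exons were 1.01 after IAA and 0.97 in the controls for the higher genes, and -0.88 and -0.61 for the lower. The 45 genes called in both columns all had the same direction in the intron values of the controls. The controls are other libraries but the same clones.

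The difference between the IAA and the control comparison was tested gene by gene as an interaction. In introns 1 gene was higher (0.00787%) and 1 lower (0.00787%), Ttc27 and Cd81, each with an adjusted p of 0.0354, while 601 genes had an unadjusted p under 0.05. In exons none passed the test with edgeR (0% in either direction), with 562 unadjusted p-values under 0.05. DESeq2 called 6 genes for the interaction in introns. Jag2 had fitted values of -1.13 after IAA and -0.07 in the controls, and this difference did not pass the test (interaction adjusted p = 0.95). Il31ra, a cytokine receptor subunit, had 61.6 and 30.3 CPM in wtSRCAP and 24.3 and 14.7 CPM in cdSRCAP after IAA, but 24.1 and 14.3 CPM in wtSRCAP and 51.4 and 36.3 CPM in cdSRCAP in the controls. Its order was opposite in the 2 settings (-1.20 ± 0.24 and 1.22 ± 0.24), and its interaction had an adjusted p of 0.066, short of the threshold.

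**Figure D3:**
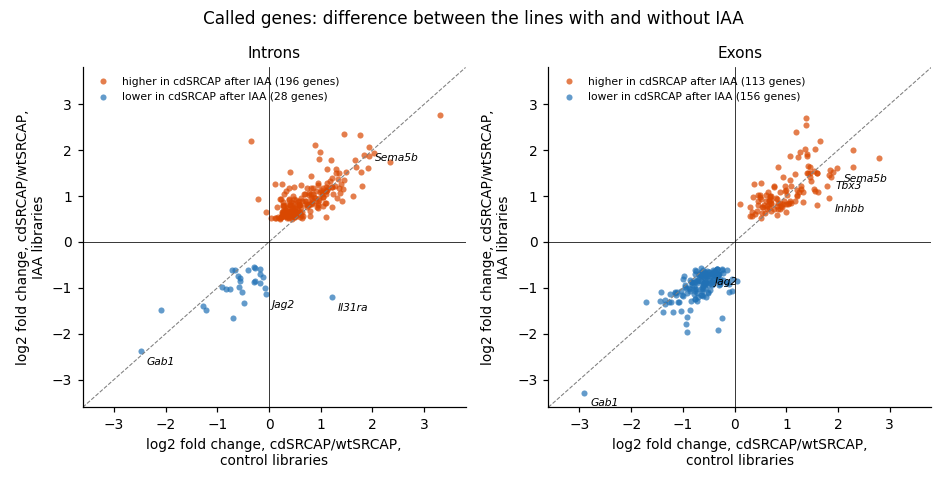
Log2 fold change of cdSRCAP over wtSRCAP in the IAA libraries (vertical axis) against the control libraries (horizontal axis) for the genes called after IAA in introns (left, the 224 with a count in all 8 libraries) and exons (right, 269), with the line of equal values dashed. The called genes lie mostly in the quadrants of equal sign, with Gab1 at the lower left and Il31ra among those of opposite sign.

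Libraries of SYAT cells without a SRCAP transgene, which share none with this comparison, show how these genes stood after 4 h of SRCAP degradation alone. Of the 203 genes higher in cdSRCAP introns, 182 were tested there and 160 had a positive log2 fold change, where 52% of all genes did. Their median was 0.37, and 0 of them were called. In introns the edgeR fit used here, with the replicate number as a block, called 1 gene higher (0.00679%) and 0 lower in SYAT in all. The paper, with DESeq2, reports changed intron reads in SYAT cells already at the earliest time of its IAA time course. The low count therefore describes this fit and not the absence of a response. The genes of the longest decile of span had a median of 0.20 in SYAT. Of the 37 lower genes, 35 were tested and 24 were higher and 11 lower in SYAT. For the exon calls the exon counts of SYAT were taken, where 51.55% of all genes were higher. Of the 113 higher genes 95 were higher and 18 lower in SYAT, with 1 called higher. Of the 156 lower genes 103 were higher and 53 lower, with 0 called. In the SYAT intron columns 3477 of 11085 expressed genes annotated with a single exon had counts, against 2 of 9857 in the table of the SRCAP lines.

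Of 22 naive pluripotency genes tested in exons, 4 were called higher, 0 lower and 18 not called, where 0.591% of all genes were higher and 0.816% lower. The median log2 fold change of the list was 0.36 (all genes 0.04). Tbx3, a T-box factor of the naive network, had 33.6 and 21.3 CPM in wtSRCAP and 75 and 69.8 CPM in cdSRCAP (1.45 ± 0.19, adjusted p = 0.00027). Nanog, a core homeobox factor, had 130.8 and 186.8 CPM against 210 and 334.6 CPM (0.76 ± 0.16, adjusted p = 0.013). In both genes the lines did not overlap, and Nanog was highest in cdSRCAP replicate 2. Klf4 (0.71 ± 0.16) and Zfp42, known as Rex1 (0.53 ± 0.13), were the other called genes. In introns 2 of 18 were called, Zfp42 (0.60 ± 0.11) and the nuclear receptor Nr5a2 (0.58 ± 0.09), and Nanog introns had 68.5 and 33.9 CPM against 49.3 and 53.9 CPM, with overlap (0.13 ± 0.29). The median of the list in exons was 0.38 in the controls. In exons 1 gene was called without either cdSRCAP IAA replicate, and 7 without wtSRCAP IAA replicate 1.

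Of the 19 formative and primed pluripotency genes, 0 were called in exons (median -0.15), and Dnmt3b with its zeros was the one called in introns. The median of the 10 ES cell markers was 0.26 in exons.

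Transcription factor genes (those named for a footprint motif in the study, 637 matched) were called higher more often than lower in introns, 18 against 1 of 312 tested. Of all genes tested 1.60% were higher and 0.291% lower. With the span trend removed, where 42 of 12688 genes were higher and 27 lower, 4 of the factors were called higher and 0 lower. The higher genes included Bnc2, a zinc finger factor with 2226 and 1202 CPM in wtSRCAP and 3609 and 2546 CPM in cdSRCAP (0.89 ± 0.10, adjusted p = 0.0046), Ebf1 (1.26 ± 0.25), Zeb1 (1.28 ± 0.23), Nfia (1.27 ± 0.27), Pknox2 (1.15 ± 0.21), Mecom (1.06 ± 0.22), Mitf (0.86 ± 0.14), Creb3l2, Zbtb7c, Cux1 and Klf12. The lower gene was Nr4a1. In exons 10 were higher and 5 lower of 442, where 0.591% of all genes were higher and 0.816% lower. Ebf1 (1.92 ± 0.43), Gbx2 (1.03 ± 0.16) and Zfp57, which protects imprints (0.91 ± 0.14), were among the higher. Cebpd (-1.30 ± 0.31) and Nr2f6 (-0.72 ± 0.18) were among the lower. Without wtSRCAP IAA replicate 1 there were 13 higher and 0 lower in introns and 13 higher and 3 lower in exons.

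Lineage regulators gave few calls in short lists. Of all genes tested, 0.591% were higher and 0.816% lower in exons, and 1.60% were higher and 0.291% lower in introns. Of 20 mesoderm and endoderm regulators tested in exons 1 was called, Meis1, a homeobox factor with 2.24 and 1.88 CPM in wtSRCAP and 6.70 and 6.23 CPM in cdSRCAP (1.65 ± 0.36). Of 8 tested in introns 1 was called, the related Meis2 (1.05 ± 0.23). The list medians were 0.27 and 0.74, and 0.46 and 0.85 in the controls. Of 15 ectoderm and neural regulators in exons, Nes, the intermediate filament of neural progenitors, was called lower (-0.88 ± 0.19), at 111 and 45.3 CPM in wtSRCAP and 44.7 and 34.1 CPM in cdSRCAP, where wtSRCAP replicate 1 stood alone. Of 22 extraembryonic lineage genes Lama1 was higher and the keratins Krt8 (-1.26 ± 0.32) and Krt18 (-1.30 ± 0.28) lower in exons.

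Among signalling genes, calls fell in both directions. In the Wnt list (29 tested in exons) the secreted antagonists Sfrp1 and Notum and the ligand Wnt5a were higher and the receptor Fzd2 lower. Sfrp1 had 52.7 and 58.9 CPM in wtSRCAP and 124 and 123 CPM in cdSRCAP (1.15 ± 0.15, adjusted p = 0.00027). Fzd2 had 53.8 and 61.1 CPM against 37.8 and 30.9 CPM (-0.74 ± 0.17). In both genes the libraries of a line were close to each other. Notum was higher by 0.84 ± 0.20 and Wnt5a, at 0.976 and 3.60 CPM in wtSRCAP and 6.12 and 7.40 in cdSRCAP, by 1.56 ± 0.38. Of all genes in exons 0.591% were higher and 0.816% lower, and without wtSRCAP IAA replicate 1 there were 2 higher and 1 lower in the list.

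In the Notch list Rbpj, the DNA-binding effector of the pathway, was higher in introns (0.69 ± 0.09) and exons (0.60 ± 0.14), the receptor Notch4 was higher in exons (0.81 ± 0.20, with overlap between the lines), and the ligand Jag2 was lower in both. In the FGF list the feedback inhibitor Spred1 was higher in introns (0.94 ± 0.12, exons 0.31 and not called), Gab1 was lower in both and the phosphatase Dusp4 lower in exons (-1.03 ± 0.24), where wtSRCAP replicate 1 had 329 CPM and the other 3 libraries 84.7 to 96.6 CPM. Of 32 Nodal, TGF-beta and BMP genes in exons 1 was called, Inhbb, a subunit of activin B (0.95 ± 0.16), and in introns the activin receptor Acvr2a (0.65 ± 0.14). Of 9 Hedgehog genes in introns the effector Gli2 was higher (0.57 ± 0.12). None of the 15 LIF and CNTF receptor genes in exons was called. The medians of these lists in exons lay between 0.02 and 0.11 (all genes 0.04). Of all genes 1.60% were higher and 0.291% lower in introns, and 0.591% were higher and 0.816% lower in exons.

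Imprinted genes had 3 of 20 lower in introns (Gab1, Sgce and Peg10) and 3 of 34 lower and 1 higher in exons. Of all genes 0.291% were lower in introns, and 0.816% were lower and 0.591% higher in exons. Without wtSRCAP IAA replicate 1 there was 1 lower in introns, and the exon counts were 3 and 1. Sfmbt2, a Polycomb-related gene, was lower in exons (-1.28 ± 0.27), at 18.2 and 13.3 CPM in wtSRCAP and 5.49 and 7.22 in cdSRCAP. The long noncoding RNA Kcnq1ot1 was higher (0.81 ± 0.15), at 438 and 323 CPM against 695 and 618 CPM, and it overlaps Kcnq1 on the other strand. In exons 14 genes of the list had a positive and 20 a negative log2 fold change, with a median of -0.09.

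Of 37 genes of the integrated stress response tested in exons, 3 were called lower, 0 higher and 34 not called, where 0.816% of all genes were lower. The log2 fold change was negative in 32 of the 37, against 8747 of all 19111 genes, and the median was -0.19 (all genes 0.04). Atf4, the transcription factor at the head of the response, had 83.2 and 59.7 CPM in wtSRCAP and 40 and 36.7 CPM in cdSRCAP (-0.88 ± 0.15, adjusted p = 0.0033). Phgdh (-0.93 ± 0.18) and Stc2, which codes for a secreted glycoprotein (-0.88 ± 0.21), were the others. The same direction was present in the controls (median -0.26, Atf4 -0.84), where Atf4 was about as far apart at 144 and 133 CPM against 80.6 and 74.5. In exons 0 genes of the list were called without cdSRCAP IAA replicate 1, 1 without cdSRCAP IAA replicate 2, 7 without wtSRCAP IAA replicate 2 and 3 without wtSRCAP IAA replicate 1. Of the 30 genes of the list with a promoter in the RefSeq table, 26.7% held TGATGNAA on either strand, letters of the composite element of ATF4 and C/EBP factors, against 2.30% of the promoters of all genes tested in exons. The list was compiled from genes of this response, so its share describes the list and not these libraries. Of the 113 promoters of genes called lower in exons, 0.885% held it.

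Cholesterol and fatty acid genes had negative medians, -0.38 over 26 genes in introns and -0.26 over 31 in exons. In exons 0 of the 31 were called by edgeR, and at an unadjusted p under 0.05 8 were lower and 1 higher. The medians in the controls were -0.22 in introns and -0.19 in exons.

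Immediate early genes called were lower, 1 of 13 in introns and 2 of 23 in exons. Of all genes 0.291% were lower in introns and 0.816% in exons. Nr4a1, an orphan nuclear receptor, fell in introns (-0.89 ± 0.20), and Jund (-1.05 ± 0.20) and Maff (-1.06 ± 0.25) in exons. Jund had 180 and 71.5 CPM in wtSRCAP and 64.3 and 49.9 CPM in cdSRCAP, with wtSRCAP replicate 1 far above the rest. Without that library, or without cdSRCAP IAA replicate 1, 0 genes of the list were called in either column, and without wtSRCAP IAA replicate 2 there were 2 higher and 9 lower in exons. The medians were -0.50 over 13 genes in introns and -0.19 over 23 in exons.

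Of the cell adhesion and matrix genes, 2 of 35 were higher and 2 lower in exons, where 0.591% of all genes were higher and 0.816% lower. Nid1, a basement membrane linker of laminin, had 63.8 and 83.8 CPM in wtSRCAP and 156 and 166 CPM in cdSRCAP (1.14 ± 0.15, adjusted p = 0.00035). Lama1 was the other higher gene, and Gpc3, a heparan sulfate proteoglycan, was higher in introns with overlap between the lines (0.79 ± 0.11). Thbs1 (-1.32 ± 0.30) and the focal adhesion gene Zyx (-0.84 ± 0.19) were lower. Thbs1 stood at 118 CPM in wtSRCAP replicate 1 and at 27.3 to 44.1 CPM in the other 3 libraries. Without that library there were 2 higher and 3 lower in exons.

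Cell cycle and p53 lists gave single calls, where 1.60% of all genes were higher in introns and 0.591% in exons. Ccnd2, a D-type cyclin, was higher in exons (1.55 ± 0.28), at 8.39 and 29.6 CPM in wtSRCAP and 44.9 and 52.8 in cdSRCAP, and Pola1 was higher in introns (0.50 ± 0.11). Eda2r, a p53 target of the TNF receptor family, was higher in introns (0.76 ± 0.16) and exons (1.00 ± 0.18). No gene of the G2/M, Polycomb, two-cell-like, ER and heat shock stress, or proteasome and respiratory chain lists was called in either column. Protocadherins were not tested in introns, and 0 of 16 were called in exons.

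The SRCAP complex genes themselves did not pass the test, with 0 of 9 called in introns and 0 of 10 in exons. The intron median was -0.31, with all 9 negative and 2 of them lower at an unadjusted p under 0.05, and without wtSRCAP IAA replicate 1 it was -0.11. The exon median was -0.03, with 5 positive and 5 negative and values from -0.60 to 0.94. At an unadjusted p under 0.05, 1 was higher and 3 were lower in exons, against 1351 and 1350 of all 19111 genes. Ruvbl1 (0.03 ± 0.16) and Ruvbl2 (-0.18 ± 0.14), the AAA ATPases of the complex, were not called. Among genes of H2A.Z and its other exchange factors, 1 of 14 was called higher in introns, where 1.60% of all genes were. It was Epc2, a subunit of the TIP60 and EP400 complex, at 270.8 and 280.2 CPM in wtSRCAP and 429 and 386.2 CPM in cdSRCAP (0.56 ± 0.10, adjusted p = 0.025). Its exon log2 fold change was 0.50 ± 0.17 and not called, as were those of all 16 genes tested there. The H2A.Z genes H2afz and H2afv had exon log2 fold changes of -0.03 ± 0.13 and -0.13 ± 0.19, and Anp32e, an H2A.Z chaperone, 0.03 ± 0.14.

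**Figure D4:**
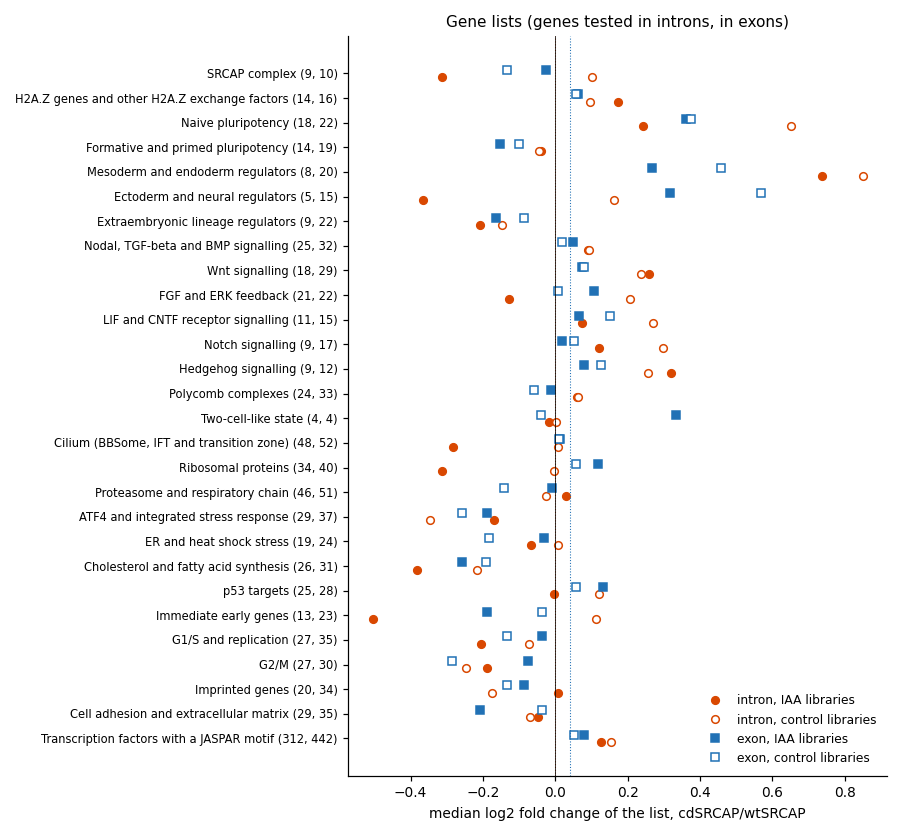
Median log2 fold change (cdSRCAP over wtSRCAP) of each gene list in introns (circles) and exons (squares), filled for the IAA and open for the control libraries, with the numbers of genes tested in introns and exons in brackets and the exon median of all genes dotted. Naive pluripotency genes lie above 0 in all 4 values, and the ATF4 and cholesterol lists lie below 0 in all 4. Other lists share these traits, among them the mesoderm and endoderm and the Wnt lists above 0 and the G2/M list below 0.

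The median of 34 ribosomal protein genes was -0.31 in introns and 0.12 in exons, with 0 called and 12 lower at an unadjusted p under 0.05. These genes are short (median span 4.13 kb), and with the span trend removed the intron median was -0.09. The median of 48 cilium genes was -0.28 in introns, where 38 were negative, and 0.01 in exons, where RLE scaling gave -0.02. The one called, Mkks, a BBSome chaperone, had 0 counts in both wtSRCAP libraries and 27 and 34 in cdSRCAP. Relative to the mean of the 8 libraries, the median exon level of the 52 cilium genes lay between -0.30 and -0.18 on the log2 scale in the 4 IAA libraries and between 0.21 and 0.24 in the 4 controls. In exons 7 of 52 were called lower after IAA than in the control in wtSRCAP and 5 in cdSRCAP, with medians of -0.48 and -0.42, where 1.47% and 1.28% of all genes were lower and 1.74% and 0.523% higher. In introns 5 of 48 were called lower in wtSRCAP and 13 in cdSRCAP, with medians of -0.65 and -0.87, where 1.36% and 1.74% of all genes were lower and 0.937% and 0.779% higher. No cilium gene was called higher after IAA in either line. These comparisons share the IAA libraries with the comparison of the lines.

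Gene families that stood out among the calls were listed after their values had been seen, and their counts are therefore a description without support. Of 58 axon guidance genes tested in introns 7 were higher and 0 lower, where 1.60% of all genes and 9.69% of those in the longest decile of span were higher. Without wtSRCAP IAA replicate 1, 6 were higher. Ntn1, a netrin, had 565.1 and 514.8 CPM in wtSRCAP and 1212 and 1122 CPM in cdSRCAP (1.11 ± 0.09, adjusted p = 0.00059), and Robo1, a receptor of Slit ligands, 331.9 and 321.6 CPM against 693.2 and 644.3 CPM (1.03 ± 0.10). The libraries of each line lay close together in both genes. Unc5d (1.33 ± 0.18), Slit2 (1.14 ± 0.17), Plxna2 (1.04 ± 0.20), Slit3 (0.51 ± 0.11, with overlap) and Sema5b were the others. The median span of these genes was 128.4 kb, and with the span trend removed 4 were called and the median fell from 0.26 to 0.08. In exons 3 were higher (Sema5b, Robo1 and Plxna2) and 3 lower (Epha1, Sema4c and Sema6a).

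Of 47 epithelial junction and keratin genes tested in exons, 9 were called lower, 1 higher and 37 not called, where 0.816% of all genes were lower and 0.591% higher. Cldn6 and Cldn7, claudins of the tight junction, had 162.6 and 134.9 CPM and 60.2 and 42.3 CPM in wtSRCAP, against 66.4 and 66.3 CPM and 18.8 and 22.9 CPM in cdSRCAP (-1.16 ± 0.16 and -1.29 ± 0.20). Cgn, which codes for the junction protein cingulin (-1.03 ± 0.16), Esrp1, an epithelial splicing factor (-0.64 ± 0.14), Prss8 (-1.10 ± 0.24), Patj (-0.88 ± 0.19), Krt8, Krt18 and Krt19 were the other lower genes, and Jam2 was higher (1.23 ± 0.18). The claudins and Cgn did not overlap between the lines and were lower in the controls too (-1.14, -1.44 and -0.66). Krt8 and Krt18, at 70.5 and 65.6 CPM in wtSRCAP replicate 1 and 14.6 to 21.5 CPM in the other 3 libraries, differed mainly by that library, and in the controls wtSRCAP replicate 1 was high as well (68.5 and 58.3 CPM). Without wtSRCAP IAA replicate 1, 7 genes of the list were lower, without wtSRCAP IAA replicate 2 19, and without cdSRCAP IAA replicate 1 only 2.

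Actin cytoskeleton genes and targets of YAP or SRF had 9 of 49 called lower, 0 higher and 40 not called in exons, where 0.816% of all genes were lower. Tpm4 had 111 and 99.4 CPM in wtSRCAP and 53.6 and 67.4 CPM in cdSRCAP (-0.80 ± 0.16). Tpm1 (-0.86 ± 0.19), Flnc (-1.13 ± 0.19), Csrp1 (-1.07 ± 0.26), Ccn1 (-0.83 ± 0.19), Amotl2 (-0.68 ± 0.15), Myh10 (-0.66 ± 0.14), Zyx and Thbs1 were the others. All 9 were highest in wtSRCAP IAA replicate 1 of the 4 libraries, and Flnc overlapped between the lines. The median level of the list relative to the 8 libraries was 0.57 in that library, 0.15 in wtSRCAP replicate 2 and -0.06 and -0.14 in cdSRCAP. There were 8 lower and 1 higher without wtSRCAP IAA replicate 1, 28 lower and 1 higher without wtSRCAP IAA replicate 2, and 0 without cdSRCAP IAA replicate 1. With upper-quartile scaling 4 were lower.

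Of 9 genes of DNA methylation, the TET and DNA methyltransferase genes with Uhrf1 and Zfp57, 3 were higher and 0 lower in exons, where 0.591% of all genes were higher. Without wtSRCAP IAA replicate 1 there were 2 higher and 2 lower. Tet2, a methylcytosine dioxygenase, had 128.5 and 193.6 CPM in wtSRCAP and 302.9 and 320.1 CPM in cdSRCAP (0.96 ± 0.16, adjusted p = 0.0024) and was also higher in introns (0.67 ± 0.15). Tet1 had 1260 and 1283 CPM against 2185 and 1612 CPM (0.56 ± 0.14). Zfp57 was the third. Dnmt3b was not called in exons (-0.57).

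**Figure D5:**
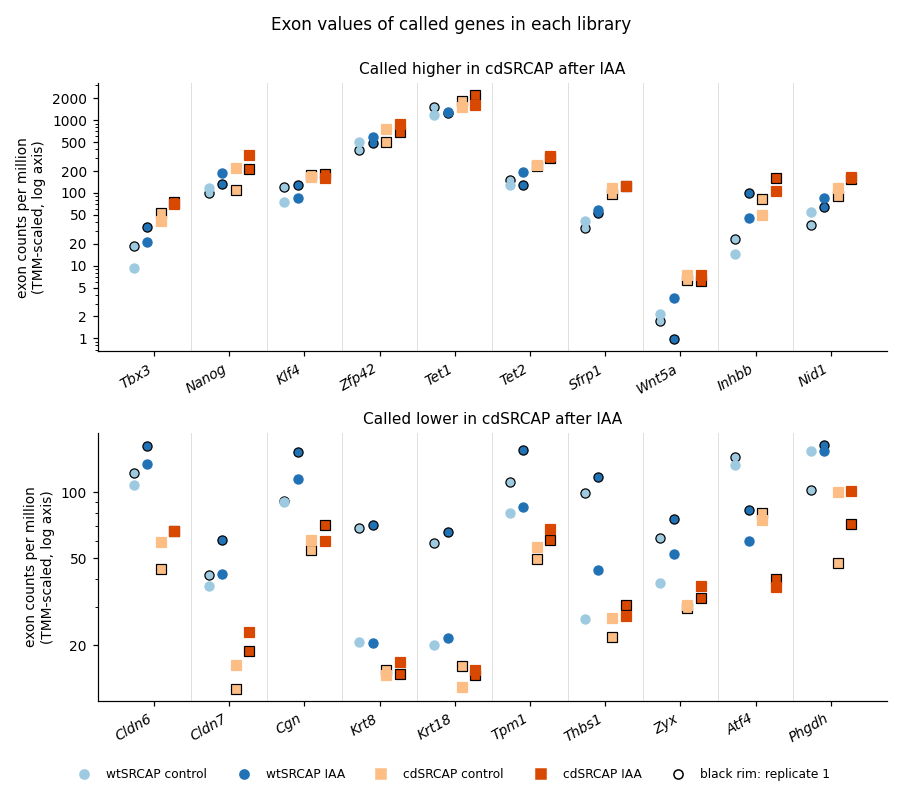
Exon CPM (TMM-scaled, log axes) in each library for 10 genes called higher (top) and 10 called lower (bottom) in cdSRCAP after IAA (circles wtSRCAP, squares cdSRCAP, pale colours controls, dark colours IAA, black rim replicate 1). Tbx3 and Sfrp1 are higher and Cldn6 and Cgn lower in all cdSRCAP libraries, while Krt8 and Krt18 are high mainly in replicate 1 of wtSRCAP.

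Among the exon genes with the largest increases by size were Olfr924, Xaf1, Cacna2d2, Gfra2 and Efhd1, with log2 fold changes of 1.95 to 2.70. These genes were expressed at low levels, with at most 12 CPM in any of the 4 libraries. The largest decreases after Gab1 were Cxcl16 (-1.96 ± 0.37), Lrrc3 (-1.91 ± 0.40), Krt19 (-1.78 ± 0.41), Nfkbil1 (-1.67 ± 0.30) and Col5a2 (-1.63 ± 0.30), and these 5 were highest in wtSRCAP IAA replicate 1 of the 4 libraries.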

How the data were processed

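Nuclear RNA was sequenced with a strand-specific kit. Per the study's methods, the authors used STAR for alignment (genome mm10) and featureCounts for counting over GENCODE vM25 exons and over introns (gene body minus exons). They deposited raw read counts per gene in intron and exon columns, and the strand setting of the counting is not given in the sources used here. The authors' tables of differential expression were not used.

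Intron and exon counts of 8 libraries were fitted separately with edgeR 4.0.16 (R 4.3.3): filterByExpr (minimum count 10, minimum total 15), TMM scaling, and a quasi-likelihood test with group and replicate number as terms, with Benjamini-Hochberg adjustment over all genes tested. Calls required an absolute log2 fold change over 0.5 and an adjusted p under 0.05. The difference of the IAA and control comparisons was tested as a contrast of the same fit. On simulated counts for the intron columns, 127 of 200 genes changed by 1 on the log2 scale were called and 198 of 200 changed by 2, and for the exon columns 173 and 200. Per run, 8 to 11 unchanged genes were called. The changed genes were drawn from those above the median level, and the counts were given an effect shared by replicate number. The shares therefore do not cover genes of lower level, and the simulation does not test the use of the block.

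The comparison, the gene lists and the motifs were chosen with earlier results of these data known. Named genes were the 12 largest increases and decreases in introns and 6 in exons (protein-coding, called, no overlap between lines, mean of at least 20 counts), called list members, up to 4 list members of lowest p, SRCAP complex and H2A.Z genes, the 10 of lowest p called in both columns and the 6 of lowest interaction p. Other names were chosen after their values were seen. Alternatives covered scaling, filters, DESeq2 1.42.0, the block, gene span and single libraries. Promoters were matched by symbol to the RefSeq table of GRCm38.p6. Some genes that met the rule are not reported here.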

Additional observations from a re-analysis of the deposited data

Results flagged for a closer look

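The difference between the IAA and the control comparison of the lines passed the test for 2 genes in introns. Ttc27 had 0 intron counts in both wtSRCAP IAA libraries, 268 and 467 in cdSRCAP with IAA, 269 and 260 in the wtSRCAP controls and 551 and 304 in the cdSRCAP controls (edgeR interaction, adjusted p = 0.0354). Only the wtSRCAP IAA libraries lacked counts, and the exon log2 fold change of the gene was -0.05. Cd81, a tetraspanin, had 79 intron counts in wtSRCAP IAA replicate 1, 187 in cdSRCAP control replicate 1 and 0 in the other 6 libraries (edgeR interaction, adjusted p = 0.0354). Its counts thus came from 1 library in each of 2 groups, and its exon log2 fold change was 0.10, not called.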

How the results depend on the processing

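Without the replicate block 2 genes were called in introns in place of 240, 1 in exons in place of 269, 0 for the interaction in place of 2 (322 with an unadjusted p under 0.05) and 13 in the intron controls in place of 136. Same-numbered samples deviated from their group means together, with correlations of 0.0759 to 0.296 in introns and 0.259 to 0.376 in exons over 6 pairs of groups, but with 2 replicate numbers the sources do not say what a number shares. Without a filter on low counts there were 708 intron and 484 exon calls, and with DESeq2 on the 4 libraries with block and shrinkage 121 and 63. edgeR on the 4 libraries alone called 30 genes in introns and 260 in exons, and DESeq2 called 6 genes for the interaction. Leaving out 1 library gave 102 to 476 calls in introns and 13 to 2492 in exons. Removal of the span trend, chosen after seeing the data, gave 69 intron calls and 74 in the intron controls. The other alternatives stayed within 1.5 times the main count, at 224 to 328 in introns and 204 to 392 in exons. Among named genes Rprd1b reversed, with intron counts in wtSRCAP IAA replicate 1 alone of the 4 libraries and values from -9.17 to 0.23 when 1 library was left out (0.23 without cdSRCAP IAA replicate 1). These fitted values depend on the prior count and are no folds. The cause of these changes was not tested. Taking exon from intron counts was not run, since 2 of 9857 single-exon genes had intron counts. The depth of introns, 2006573 counts in the shallowest library, limits low genes.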

Other observations

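Some genes outside the lists were well separated, and they were chosen after their values were seen. Xist, the long noncoding RNA of X inactivation, had exon levels of 13.1 and 15.6 CPM in wtSRCAP and 47.6 and 43.4 CPM in cdSRCAP, with no overlap (1.63 ± 0.20, edgeR adjusted p = 0.00022). Its difference in the controls was 0.83. Xist overlaps Tsix, which was also called higher in exons. The strand setting of the counting is not given, so reads of these genes may not be separated. Platr4, a long noncoding RNA of ES cells, had intron levels of 10.1 and 12.2 CPM in wtSRCAP and 42.6 and 36.2 CPM in cdSRCAP (1.81 ± 0.29) and was also called in exons (1.88 ± 0.40).

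Vegfc, a lymphangiogenic growth factor, had intron levels of 329 and 255 CPM in wtSRCAP and 835 and 604 CPM in cdSRCAP (1.29 ± 0.10, edgeR adjusted p = 0.00059), while its exon log2 fold change of 0.64 ± 0.20 was not called (adjusted p = 0.12). Flt4, its receptor, had exon levels of 15.2 and 12.4 CPM in wtSRCAP and 34.2 and 27.4 CPM in cdSRCAP (1.16 ± 0.20, edgeR adjusted p = 0.0027), and its intron log2 fold change of 0.86 ± 0.33 was not called (adjusted p = 0.23).

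Called genes lay on every autosome and on X and Y in both columns. Exon calls were uneven, with 20 lower genes of 1040 tested on chromosome 8, where 0.816% of all genes were lower. Chromosome 14 held 10 genes higher and 2 lower in exons. Chromosome medians of the intron log2 fold change ran from -0.08 on chromosome 7 to 0.13 on chromosome 13, apart from 6 genes tested on the Y chromosome (0.24). Within 500 kb of each other there were 17 neighbouring pairs of genes called in introns, of which 10 had the same direction. In exons there were 37 such pairs, of which 30 had the same direction. Whether these pairs are more than expected was not tested.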
